A study of Mus musculus with 10 samples.

Results

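The 36 interferon-stimulated genes described here are genes whose RNA rises in most vertebrate cells after interferon, and they were chosen by symbol. A row for each of the 36 was found in both deposited tables, among 55189 named genes in the table with the Drosha knockout and 32931 in the table with the Dicer1 knockout. RNA was measured by sequencing of bead-captured mRNA from OP9, a line of stromal cells from mouse bone marrow with the capacity to become adipocytes. All 10 libraries came from confluent cells given rosiglitazone, which activates PPARγ and so drives adipocyte formation, at 1 µM for 10 days. Batch 2 holds 3 Drosha knockout libraries and 3 empty vector libraries. Batch 1 holds 2 libraries labelled Dicer1 knockout and 2 empty vector libraries. Both empty vector groups have the genotype WT in the labels. The labels do not say how the knockouts were made, whether a knockout line is 1 clone, or whether replicates were separate cultures, so the spread that p-values measure here is that between libraries and may be only technical. The comparisons ask how these genes differ when Drosha, which cuts primary microRNA transcripts in the nucleus, or Dicer1, which cuts the released hairpins in the cytoplasm, is lost.

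Type I interferons bind a receptor made of IFNAR1 and IFNAR2, whose kinases JAK1 and TYK2 phosphorylate transcription factors, among them STAT2. With IRF9, STAT2 is part of a complex that binds the interferon-stimulated response element (ISRE) in promoters. Interferon-gamma acts through another element, the gamma-activated site (GAS). The products of the induced genes block steps of viral replication, sense foreign RNA, present antigen, or shut the signal down again. Several of them, among them Eif2ak2, Adar, Ifih1 and the OAS genes, encode proteins that bind double-stranded RNA, the kind of structure that Drosha and Dicer1 cut.

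Promoter sequences are shown because the ISRE is what many of these genes have in common besides the list. RefSeq promoter windows of GRCm38.p6, 300 bases from 250 before to 50 after the annotated start, were found for 28 of the 36 members. The ISRE was searched as GAAA, any 2 bases and GAAA again, on both strands (TTTC, any 2 bases and TTTC on the other strand), and the GAS as TTCNNNGAA, which reads the same on both. An ISRE match lay in the window of 14 of the 28 members (50%), against 3.99% of 27025 genes with a window. A GAS match lay in that of 7 of the 28 (25%), against 9.55% of all genes. In the window of Bst2 the matches to both motifs share 3 bases. The windows below are those of the ubiquitin-like modifier gene Isg15 (chr4:156200769-156201068, minus strand), of Ifit1 (chr19:34640639-34640938, plus strand), of the neighbouring gene pair Ifit3 (chr19:34583279-34583578, plus strand) and Ifit3b (chr19:34607707-34608006, plus strand), of the chemokine gene Cxcl10 (chr5:92348840-92349139, minus strand) and of Gbp2 (chr3:142620413-142620712, plus strand). Each is written 5′ to 3′ in the direction of the gene, and capitals mark ISRE matches.
Isg15: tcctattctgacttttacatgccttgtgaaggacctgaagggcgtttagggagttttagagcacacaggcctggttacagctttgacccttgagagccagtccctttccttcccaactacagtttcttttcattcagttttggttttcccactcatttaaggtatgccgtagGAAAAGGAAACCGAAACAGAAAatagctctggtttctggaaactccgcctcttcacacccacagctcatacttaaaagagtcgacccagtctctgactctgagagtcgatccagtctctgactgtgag
Ifit1: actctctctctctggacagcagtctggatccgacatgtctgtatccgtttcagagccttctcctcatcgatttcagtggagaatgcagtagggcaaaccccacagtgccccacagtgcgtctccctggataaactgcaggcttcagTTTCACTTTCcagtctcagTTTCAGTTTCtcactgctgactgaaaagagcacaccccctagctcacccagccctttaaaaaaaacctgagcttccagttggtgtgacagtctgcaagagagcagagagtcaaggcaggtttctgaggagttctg
Ifit3: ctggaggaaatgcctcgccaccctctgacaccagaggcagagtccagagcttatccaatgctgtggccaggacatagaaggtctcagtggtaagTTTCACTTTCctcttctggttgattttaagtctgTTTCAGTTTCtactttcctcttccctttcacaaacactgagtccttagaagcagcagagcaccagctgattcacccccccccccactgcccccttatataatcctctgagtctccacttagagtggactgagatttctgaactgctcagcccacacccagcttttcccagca
Ifit3b: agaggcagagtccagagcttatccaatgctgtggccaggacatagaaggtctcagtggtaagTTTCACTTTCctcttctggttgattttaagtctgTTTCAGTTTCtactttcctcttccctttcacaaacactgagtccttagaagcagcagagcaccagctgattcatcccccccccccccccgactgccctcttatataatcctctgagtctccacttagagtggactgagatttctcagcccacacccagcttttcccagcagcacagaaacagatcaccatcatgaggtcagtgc
Cxcl10: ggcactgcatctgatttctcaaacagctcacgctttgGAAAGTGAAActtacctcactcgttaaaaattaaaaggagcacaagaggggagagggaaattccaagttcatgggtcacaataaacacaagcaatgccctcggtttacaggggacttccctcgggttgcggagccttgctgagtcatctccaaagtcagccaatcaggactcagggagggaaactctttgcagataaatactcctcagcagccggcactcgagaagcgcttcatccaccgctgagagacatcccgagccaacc
Gbp2: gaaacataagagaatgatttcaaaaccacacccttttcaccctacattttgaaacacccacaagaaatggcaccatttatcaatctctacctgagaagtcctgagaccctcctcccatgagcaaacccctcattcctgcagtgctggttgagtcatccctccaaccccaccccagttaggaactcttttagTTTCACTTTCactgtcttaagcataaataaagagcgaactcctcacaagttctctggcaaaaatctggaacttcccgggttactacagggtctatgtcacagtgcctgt
The 3 matches of Isg15 overlap and run together, from position -78 relative to the start. The windows of Ifit3 and Ifit3b share a stretch of 169 bases that holds both ISRE matches, which begin 34 bases apart in each gene. These are matches of letters, and no binding was measured.

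The values are TPM, a transcript's share of its library corrected for transcript length, which keeps no record of depth, so depth is unknown and no counting interval is given. A gene was tested when its TPM reached 1 in at least 3 of the 6 libraries of the Drosha table or 2 of the 4 of the Dicer1 table. Rsad2, Mx1 and Mx2 stayed under TPM 1 in every library of the Drosha table, and no member did so in the Dicer1 table. The targeted RNA fell in the Drosha knockout, from 38.9, 39.6 and 38.6 TPM in the empty vector libraries to 14.8, 13.7 and 15.6 (-1.35 ± 0.05, adjusted p = 9.72e-06, limma). Dicer1 RNA was 23.8 and 17.3 TPM in batch 1 empty vector and 19.3 and 14.9 TPM under the label of Dicer1 knockout, with overlapping groups (-0.25 ± 0.21, adjusted p = 0.407). The level of Dicer1 RNA therefore does not check that label, and each direction given for those libraries rests on the label alone. Dicer1 RNA rose in the Drosha knockout, from 9.52, 8.49 and 9.21 TPM to 18.8, 16.5 and 19.6 TPM (0.94 ± 0.08, limma adjusted p = 0.000132). Drosha RNA did not pass in batch 1 (0.19 ± 0.15, limma adjusted p = 0.383). Of the markers of the line, 14 stromal and adipocyte genes summed to 12560 to 13300 TPM in the batch 2 empty vector, 12340 to 12740 in the Drosha knockout, 2685 to 3212 in the batch 1 empty vector and 1324 to 1351 in the libraries labelled Dicer1 knockout. The genes with the highest levels weigh most in these sums. Cxcl12 had means of 5026 TPM in the batch 2 empty vector and 258 TPM in that of batch 1, and Col1a2 3371 and 610 TPM. Pparg (133 and 122 TPM) and Plin1 (48.6 and 46.4 TPM) were closer between these groups. In the libraries labelled Dicer1 knockout the adipocyte genes Adipoq (0.148 and 0.164 TPM) and Plin1 (0.408 and 0.406 TPM) were under TPM 1, against means of 49.0 and 46.4 TPM in the batch 1 empty vector. The mean of Pparg was 122 TPM in that empty vector and 113 TPM in the labelled libraries. Adipoq and Plin1 also fell in the Drosha knockout, from means of 235 and 48.6 TPM to 110 and 24.0 TPM (limma adjusted p = 1.2e-05 and 7.05e-05). Fabp4 rose there, from 896 to 1152 TPM.

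Some libraries stood apart for the interferon-stimulated genes. In the batch 1 empty vector, replicate 1 was above replicate 2 for 33 of the 36 members, against 62.8% of all genes tested. The median difference between these libraries was 0.55 on the log2 scale over the members and 0.10 over all genes. Among the Drosha knockout libraries, replicate 1 was the highest for 22 of the 31 members tested, against 27.9% of all genes. Of the 2 libraries labelled Dicer1 knockout, replicate 1 was the higher for 16 members and replicate 2 for 20. Correlations between libraries of the same group, over all genes, were 0.989 to 0.990 in batch 2, 0.982 for the pair labelled Dicer1 knockout and 0.972 for the batch 1 empty vector pair. Where leaving one of these libraries out changed a call or moved a described value much, that value is given beside the result.

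**Figure D1:**
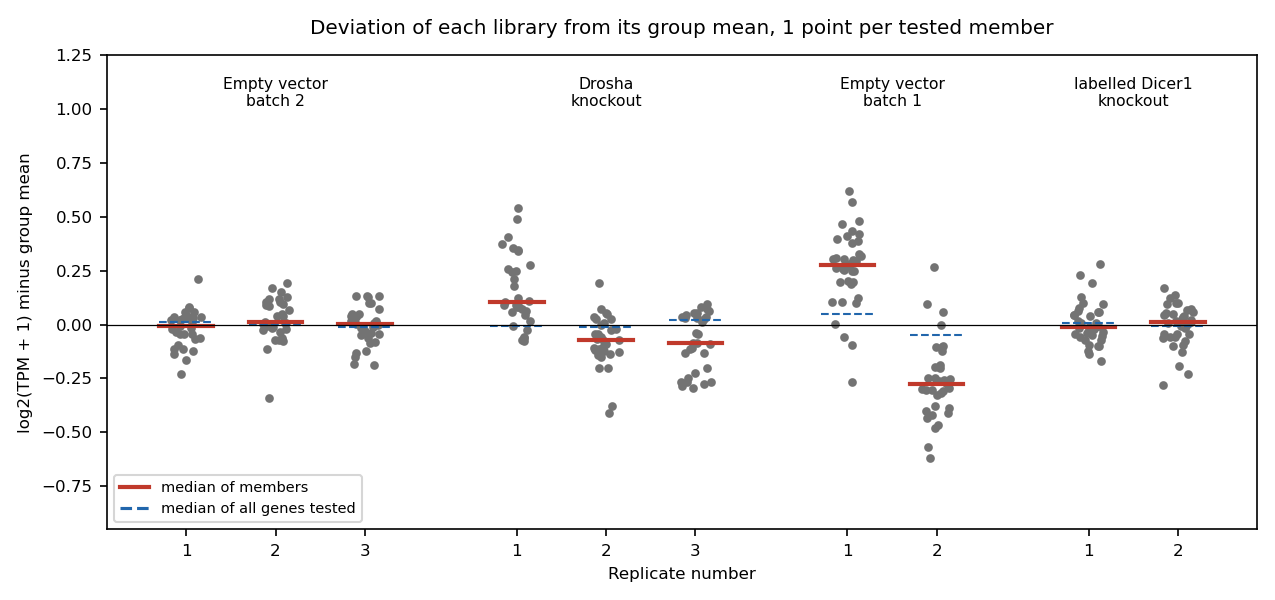
Each point is 1 tested member in 1 library, drawn as its log2(TPM + 1) minus the mean of its group, with replicate numbers on the x axis. Red lines are medians over members and blue dashed lines are medians over all genes tested. Most members lie above 0 in batch 1 empty vector replicate 1 and in Drosha knockout replicate 1, while the blue lines stay near 0.

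The interferon-stimulated genes were higher in the Drosha knockout. Of the 31 members tested, 19 rose, 0 fell and 12 did not pass, where a call is a limma adjusted p under 0.05 over all 12739 genes tested. Among those genes 42.8% were called in either direction, 35.3% higher and 7.42% lower, so that rises were common in this comparison, and 61.3% of the members tested rose. At an unadjusted p under 0.05, 22 members were higher and 0 lower. The median change of the members tested was 0.35 on the log2(TPM + 1) scale, beside 0.13 over all genes. All knockout libraries were above all empty vector libraries for 24 of the 31 members, against 44.1% of all genes, and all below for 0, against 10.7%. Usp18 and Oasl2 were tested only because the knockout libraries passed the TPM minimum, and without them 17 of 29 rose. In bulk RNA, a change in the number of cells with the RNA and a change in RNA per cell cannot be told apart.

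The rise of the members in the Drosha knockout was smaller when libraries were scaled to a common median. Median-ratio scaling moved the median of all genes from 0.13 to -0.0024, and 2297 genes were then called higher and 2083 lower, in place of 4502 and 945. Of the members, 13 rose and 0 fell under that scaling (16 and 1 at an unadjusted p under 0.05), with a median of 0.22. The calls of 12 of the 19 members held under both median-ratio scaling and quantile normalization, and those of 6 held under all 15 alternatives run: Irf1, Stat2, Ifit2, Ifit3, Samd9l and Tap1. Another 5 (Usp18, Ifit1, Oasl2, Parp14 and Gbp2) held under all alternatives in which they were tested, and were too low to be tested with a minimum TPM of 5. Leaving out each of the 6 libraries in turn gave between 15 and 21 members called higher, and 16 without Drosha knockout replicate 1. Of all genes, 28.2 to 31.1% were called higher in these fits, and 29.5% without that replicate.

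In the libraries labelled Dicer1 knockout the members went mostly the other way. All 36 were tested: 13 fell, 3 rose and 20 did not pass (limma, over 12239 genes). Of all genes tested there, 31.1% were called, 21.5% higher and 9.6% lower, while 36.1% of the members fell. The median change of the members was -0.65, beside 0.15 over all genes. Both knockout libraries were below both empty vector libraries for 20 of the 36 members, against 24.2% of all genes, and above them for 6, against 45.9%. Mx1 was tested only through its empty vector libraries, and without it 3 rose and 13 fell of 35. Median-ratio scaling moved the median of all genes to 0.01 and the calls over all genes from 2627 higher and 1175 lower to 1583 and 1580, while 15 members fell and 2 rose.

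The number of calls in the batch 1 comparison depended on single libraries. Without empty vector replicate 1, the higher of that pair for most members, 5 members fell (Irf7, Oas1a, Mx2, Bst2 and Ifi35), 4 rose and the median was -0.35, while over all genes 12.5% were called higher and 4.5% lower. Without empty vector replicate 2, 15 fell, 0 rose (3 at an unadjusted p under 0.05) and the median was -0.92, while over all genes 10.0% were called higher and 6.2% lower. Without either of the libraries labelled Dicer1 knockout, limma called 0 of 12998 or 13024 genes, with 2668 and 2849 genes at an unadjusted p under 0.05, and the remaining library was assumed to vary like the empty vector pair. In each of those fits 1 member was higher and 9 were lower at an unadjusted p under 0.05, and the members' median was -0.72 or -0.59.

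**Figure D2:**
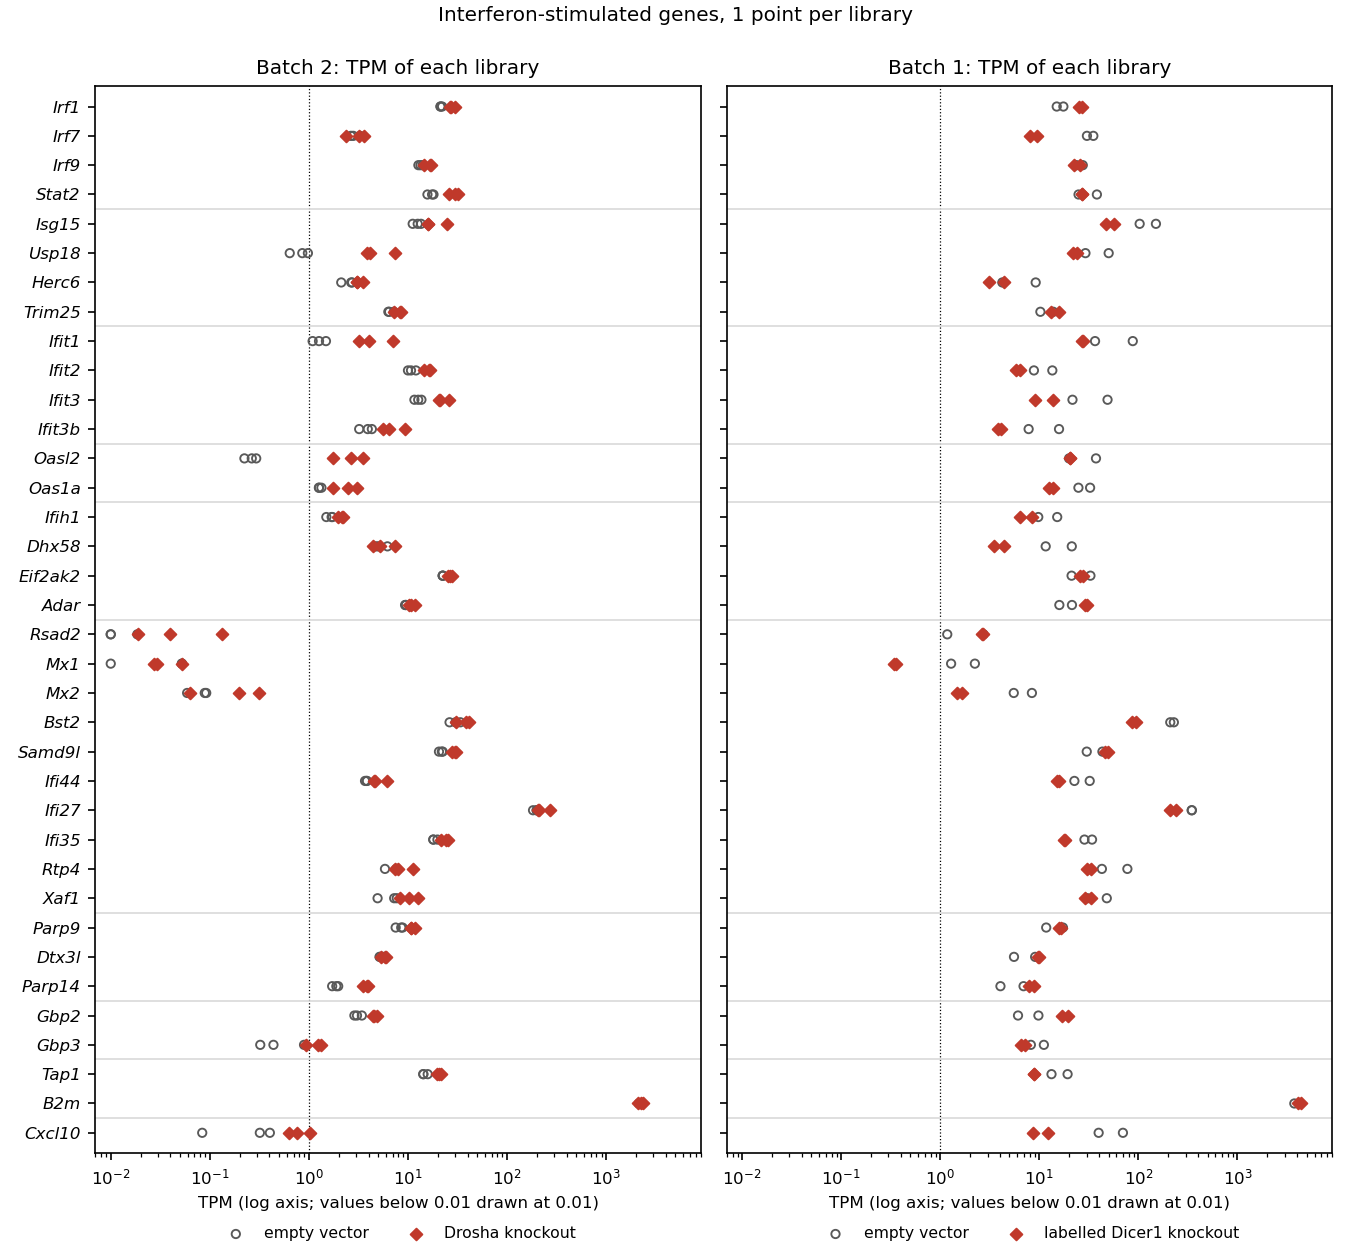
Each row is 1 member and each point its TPM in 1 library on a log axis, with batch 2 on the left and batch 1 on the right. Circles are empty vector and diamonds knockout libraries, the dotted line marks TPM 1, and values below 0.01 are drawn at 0.01. The diamonds lie mostly to the right of the circles in batch 2 and mostly to their left in batch 1.

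Among the 4 transcription factors, Stat2 rose in the Drosha knockout and Irf7 fell in the libraries labelled Dicer1 knockout. Stat2, a transcription factor that pairs with IRF9, stood at 18.1, 15.7 and 17.5 TPM in the batch 2 empty vector and at 31.9, 26.2 and 29.8 TPM in the Drosha knockout (0.74 ± 0.08, adjusted p = 0.00049). The Drosha groups were far apart for it, and its call held under all alternatives run. In batch 1 its values were 38.1 and 24.9 TPM and 27.2 and 27.0 TPM, with the knockout libraries inside the range of the empty vector pair (-0.18 ± 0.21, adjusted p = 0.544), and the change was 0.12 (adjusted p = 0.336) without empty vector replicate 1 and -0.48 (adjusted p = 0.0535) without replicate 2. Irf7, which drives the later wave of interferon gene transcription, stood at 35.1 and 30.2 TPM in the batch 1 empty vector and at 8.04 and 9.38 TPM in the libraries labelled Dicer1 knockout (-1.79 ± 0.15, adjusted p = 0.00438). The batch 1 groups did not overlap, and this fall held with either empty vector library left out. In batch 2 its values were 2.65, 2.81 and 3.28 TPM and 3.24, 3.62 and 2.36 TPM, with overlapping groups (0.05 ± 0.15, adjusted p = 0.823), and the sign of that change flipped under both scalings.

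Irf1 passed in both comparisons and Irf9 only in the Drosha knockout. Irf1, a factor that responds strongly to interferon-gamma, rose in both comparisons. It went from 21.6 ± 0.472 to 27.9 ± 1.72 TPM (SD, n = 3) in the Drosha knockout (0.35 ± 0.05, adjusted p = 0.00198) and from 17.5 and 15.0 TPM to 27.0 and 25.3 TPM in the libraries labelled Dicer1 knockout (0.66 ± 0.14, adjusted p = 0.0225). All knockout libraries were above all empty vector libraries in both tables, and the second call was lost without empty vector replicate 2 (0.55, adjusted p = 0.0621). Irf9, the DNA-binding partner of STAT2, rose in the Drosha knockout from 13.4 ± 0.672 to 16.1 ± 1.36 TPM (0.24 ± 0.07, adjusted p = 0.0321). That call was lost with 4 of the 6 libraries left out in turn and under both scalings. In batch 1 the Irf9 groups overlapped, at 27.4 and 23.7 TPM and 25.7 and 22.4 TPM (-0.09 ± 0.14, adjusted p = 0.67).

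Of the ISG15 system, Isg15 and Usp18 rose in the Drosha knockout. Isg15 encodes a ubiquitin-like protein that is attached to other proteins after interferon, and Herc6 is the ligase that attaches it in the mouse. Usp18 encodes the protease that removes it and also damps signalling at the interferon receptor. Usp18 stood at 0.858, 0.977 and 0.641 TPM in the batch 2 empty vector, below TPM 1 in every library, and at 7.31, 4.15 and 3.86 TPM in the Drosha knockout (1.70 ± 0.22, adjusted p = 0.000814), the largest change among the members tested there with a pseudocount of 1. The Drosha groups were far apart, with replicate 1 the highest, and without it the change was 1.46 (adjusted p = 0.00161). In batch 1, Usp18 stood at 50.1 and 29.2 TPM and 24.2 and 21.7 TPM (-0.72 ± 0.26, adjusted p = 0.0868). Both knockout libraries lay below both empty vector libraries, but the change did not pass. It was -0.34 (adjusted p = 0.141) without empty vector replicate 1 and passed without replicate 2 (-1.10, adjusted p = 0.0451), under quantile normalization (-0.91, adjusted p = 0.0496) and with the replicate block (adjusted p = 0.0441).

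Isg15 went in opposite directions in the comparisons. It stood at 11.2, 13.5 and 12.5 TPM in the batch 2 empty vector and at 25.0, 16.1 and 16.1 TPM in the Drosha knockout (0.55 ± 0.17, adjusted p = 0.0316), where replicate 1 stood well above the others and without it the change was 0.35 (adjusted p = 0.0241). The call was lost without any 1 of the 3 empty vector libraries (adjusted p = 0.0516 to 0.0989), and under both scalings. In batch 1, Isg15 fell from 150.3 and 103 TPM to 56.2 and 47.0 TPM (-1.26 ± 0.20, adjusted p = 0.0115), with groups far apart, and without empty vector replicate 1 it missed the threshold (-0.99, adjusted p = 0.0522). Herc6 did not pass in either comparison (0.27 ± 0.12, adjusted p = 0.111 for Drosha and -0.64 ± 0.37, adjusted p = 0.236 in batch 1). Trim25, a ligase that activates the RNA sensor RIG-I, did not pass either (0.23 ± 0.09, adjusted p = 0.0697 and 0.26 ± 0.20, adjusted p = 0.356).

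All 4 IFIT genes rose in the Drosha knockout, also under both scalings, and all 4 were lower in both libraries labelled Dicer1 knockout than in both empty vector libraries, where Ifit3 and Ifit3b passed the test. IFIT proteins bind viral RNA or block its translation. Ifit1 stood at 1.09, 1.27 and 1.49 TPM in the batch 2 empty vector and at 7.12, 3.20 and 4.09 TPM in the Drosha knockout (1.29 ± 0.24, adjusted p = 0.00409). Every knockout library was above the highest empty vector library, and replicate 1 was again the highest (1.02, adjusted p = 0.0054 without it). In batch 1, Ifit1 stood at 87.8 and 36.5 TPM and 27.2 and 27.4 TPM (-1.03 ± 0.39, adjusted p = 0.0992). The 2 knockout libraries were nearly equal, while the empty vector libraries were far from each other: without replicate 1 the change was -0.40 (adjusted p = 0.062), and without replicate 2 it was -1.65 and passed (adjusted p = 0.043). Ifit2 went from 10.9 ± 1.02 to 15.8 ± 1.08 TPM (SD, n = 3) in the Drosha knockout (0.50 ± 0.08, adjusted p = 0.00252), and in batch 1 its values were 13.5 and 8.82 TPM and 5.76 and 6.31 TPM (-0.76 ± 0.24, adjusted p = 0.062). The batch 1 change of Ifit2 passed under median-ratio scaling (-0.90, adjusted p = 0.0378) and quantile normalization (-0.81, adjusted p = 0.0465), and was -0.48 (adjusted p = 0.119) without empty vector replicate 1.

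Ifit3 and Ifit3b are close copies: 61.8% of the 31-base words in the GENCODE M21 transcripts of Ifit3 are shared with Ifit3b or other genes, and 55.3% of those of Ifit3b, so the split of reads between them is uncertain. Their sum was 15.6, 18.0 and 15.9 TPM in the batch 2 empty vector and 35.2, 26.7 and 26.5 TPM in the Drosha knockout. The sum was 64.6 and 29.4 TPM in the batch 1 empty vector and 17.6 and 13.1 TPM in the libraries labelled Dicer1 knockout. The groups of the sum did not overlap in either table, with the knockout higher in batch 2 and lower in batch 1. Taken singly, Ifit3 changed by 0.77 ± 0.10 and Ifit3b by 0.72 ± 0.18 in the Drosha knockout (adjusted p = 0.000939 and 0.0135). In the libraries labelled Dicer1 knockout they changed by -1.46 ± 0.40 and -1.29 ± 0.33 (adjusted p = 0.0444 and 0.0376). Both batch 1 calls were lost without empty vector replicate 1, at -0.89 (adjusted p = 0.15) for Ifit3 and -0.82 (adjusted p = 0.0636) for Ifit3b, and that of Ifit3 also without replicate 2 (-2.03, adjusted p = 0.0577).

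Both genes of the OAS family rose in the Drosha knockout. OAS enzymes make a messenger from ATP when they bind double-stranded RNA, and it activates the nuclease RNase L; mouse Oasl2 is an OAS-like member. Oasl2 stood at 0.223, 0.265 and 0.294 TPM in the batch 2 empty vector and at 3.51, 1.73 and 2.64 TPM in the Drosha knockout (1.50 ± 0.21, adjusted p = 0.00119). All its empty vector libraries were under TPM 1 and all its knockout libraries over it. Batch 1 gave 37.3 and 20.0 TPM and 20.2 and 20.5 TPM, with both knockout libraries just above empty vector replicate 2 (-0.41 ± 0.29, adjusted p = 0.319). Without that replicate the change was -0.85 and passed (adjusted p = 0.0436), and without replicate 1 it was 0.025 (adjusted p = 0.842). Oas1a went from 1.34, 1.27 and 1.26 TPM to 3.05, 2.47 and 1.76 TPM in the Drosha knockout (0.57 ± 0.17, adjusted p = 0.0292). This call was lost without any 1 of 5 libraries, with an adjusted p of up to 0.0969, which was that without Drosha knockout replicate 1 (0.44). It was also lost under median-ratio scaling (0.47, limma adjusted p = 0.0657) and quantile normalization (0.45, limma adjusted p = 0.072). In batch 1, Oas1a fell from 32.5 and 24.8 TPM to 13.8 and 12.6 TPM (-1.06 ± 0.17, adjusted p = 0.0119), with groups apart, and the fall held with either empty vector library left out. Of the 31-base words of Oas1a transcripts, 68.8% are shared with other genes, mostly Oas1g, so its reads may be split with that gene.

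Among the members that bind double-stranded RNA, Dhx58 fell and Adar rose in the libraries labelled Dicer1 knockout, and Eif2ak2 rose in the Drosha knockout. Dhx58 encodes LGP2, a regulator of RIG-I-like sensing. It stood at 21.3 and 11.6 TPM in the batch 1 empty vector and at 3.48 and 4.43 TPM in the libraries labelled Dicer1 knockout (-1.76 ± 0.31, adjusted p = 0.0145), and without empty vector replicate 1 it was -1.35 (adjusted p = 0.0525). Its batch 2 groups overlapped, at 5.04, 6.21 and 4.76 TPM and 7.41, 5.17 and 4.46 TPM (0.06 ± 0.17, adjusted p = 0.807), and the sign of that small change flipped under both scalings. Adar encodes the enzyme that edits adenosine in double-stranded RNA. In batch 1 it went from 21.4 and 15.9 TPM to 30.6 and 28.8 TPM (0.66 ± 0.17, adjusted p = 0.0374), a rise that was lost under both scalings and without empty vector replicate 2 (0.46, adjusted p = 0.0706). In batch 2 all its knockout libraries were above all empty vector libraries, at 9.46 ± 0.0878 and 10.9 ± 0.834 TPM, without passing (0.19 ± 0.07, adjusted p = 0.059).

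Eif2ak2 encodes PKR, the kinase that halts translation when it binds double-stranded RNA. It stood at 22.4, 22.5 and 22.5 TPM in the batch 2 empty vector and at 26.3, 25.1 and 28.0 TPM in the Drosha knockout (0.23 ± 0.05, adjusted p = 0.00992). The empty vector libraries were almost equal and the groups did not overlap, but the change was 0.09 and did not pass after median-ratio scaling. In batch 1 its mean was 27.0 ± 8.22 and 27.0 ± 1.36 TPM (SD, n = 2), with overlapping groups (0.03 ± 0.22, adjusted p = 0.929). Ifih1, which encodes the RNA sensor MDA5, was separated in both tables without passing in either: 1.70, 1.50 and 1.73 against 1.99, 2.18 and 2.20 TPM in batch 2 (0.24 ± 0.12, adjusted p = 0.144), and 15.2 and 9.76 against 6.42 and 8.37 TPM in batch 1 (-0.66 ± 0.26, adjusted p = 0.106). Its knockout libraries were the higher in batch 2 and the lower in batch 1.

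Among the 10 antiviral effectors, 7 were tested in the Drosha knockout, of which 3 rose (Samd9l, Ifi35 and Xaf1), a share of 42.9% beside 35.3% of all genes. In the libraries labelled Dicer1 knockout all 10 were tested and 5 fell (Mx2, Bst2, Ifi44, Ifi27 and Ifi35), where 9.6% of all genes fell. Bst2, which encodes tetherin, a membrane protein that holds budding viruses at the cell surface, stood at 209.8 and 228 TPM in the batch 1 empty vector and at 86.2 and 95.4 TPM in the libraries labelled Dicer1 knockout (-1.26 ± 0.10, adjusted p = 0.00368). The groups were far apart, and the fall held with either empty vector library left out. In batch 2 its groups overlapped, at 30.2, 33.8 and 26.3 TPM and 41.2, 38.2 and 30.4 TPM (0.27 ± 0.13, adjusted p = 0.128). Ifi27, a gene of a small mitochondrial protein family, went from 347 and 345 TPM to 237 and 207 TPM in batch 1 (-0.64 ± 0.10, adjusted p = 0.0102). Its empty vector libraries were close to each other there, yet the call was lost without either of them (adjusted p = 0.0628 and 0.0673 at nearly the same change). Ifi44 went from 32.3 and 22.6 TPM to 15.2 and 15.7 TPM (-0.77 ± 0.19, adjusted p = 0.0347), and without empty vector replicate 1 it was -0.52 (adjusted p = 0.062).

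Ifi35, whose product is a leucine zipper protein, passed in both comparisons in opposite directions. It stood at 18.0, 19.8 and 18.0 TPM and 25.2, 21.6 and 24.0 TPM in batch 2 (0.32 ± 0.07, adjusted p = 0.00806) and at 34.1 and 28.6 TPM and 18.2 and 17.7 TPM in batch 1 (-0.76 ± 0.14, adjusted p = 0.0153). Neither pair of groups overlapped. The batch 2 rise was 0.18 and did not pass after median-ratio scaling. Samd9l, a restriction factor of poxviruses, rose in the Drosha knockout from 21.6 ± 0.964 to 29.3 ± 1.31 TPM (0.42 ± 0.05, adjusted p = 0.000822), and in batch 1 both knockout libraries were above the empty vector pair without passing (0.39 ± 0.18, adjusted p = 0.166), except without empty vector replicate 1 (0.64, adjusted p = 0.0463). Xaf1, a pro-apoptotic gene, rose from 7.71, 4.94 and 7.26 TPM to 12.5, 10.1 and 8.23 TPM (0.57 ± 0.18, adjusted p = 0.0414), a call lost without any 1 of 4 libraries and under both scalings. In batch 1 its groups overlapped (-0.31 ± 0.23, adjusted p = 0.339). Rtp4, a chaperone gene, did not pass in either comparison (0.28 ± 0.16, adjusted p = 0.21 and -0.83 ± 0.27, adjusted p = 0.071). In batch 1 it passed under median-ratio scaling (-0.98, adjusted p = 0.0453), quantile normalization (-1.02, adjusted p = 0.0452), the replicate block (adjusted p = 0.0342) and without empty vector replicate 2 (-1.25, adjusted p = 0.043), and was -0.41 (adjusted p = 0.0848) without replicate 1. Ifi27 and Ifi44 did not pass in the Drosha knockout (0.22 ± 0.10 and 0.34 ± 0.12), although all knockout libraries were above all empty vector libraries for both.

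The Mx genes and Rsad2 were close to 0 in batch 2. Mx1 and Mx2 encode dynamin-like GTPases that trap viral particles, and Rsad2 encodes viperin, an enzyme that makes a chain-terminating nucleotide. Their 6 batch 2 libraries reached at most 0.133, 0.0523 and 0.312 TPM for Rsad2, Mx1 and Mx2. In batch 1, Mx2 had 5.52 and 8.42 TPM with the empty vector and 1.47 and 1.65 TPM in the libraries labelled Dicer1 knockout (-1.62 ± 0.27, adjusted p = 0.0122). Mx1 stood at 2.24 and 1.29 TPM and 0.338 and 0.360 TPM, with groups apart, and did not pass (-1.01 ± 0.31, adjusted p = 0.0609). Rsad2 stood at 2.73 and 1.18 TPM and 2.63 and 2.72 TPM, with overlapping groups (0.37 ± 0.33, adjusted p = 0.434).

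Parp14 and Parp9, ADP-ribosyltransferase genes, rose in the Drosha knockout. Parp14 stood at 1.98, 1.72 and 1.89 TPM in the batch 2 empty vector and at 3.84, 3.56 and 3.97 TPM in the knockout (0.74 ± 0.10, adjusted p = 0.00124), with groups far apart. Parp9 went from 8.30 ± 0.690 to 11.1 ± 0.615 TPM (0.39 ± 0.08, adjusted p = 0.00619), while Dtx3l, which encodes its ubiquitin ligase partner, did not pass (0.09 ± 0.08, adjusted p = 0.389). None of the 3 passed in the libraries labelled Dicer1 knockout, with changes of 0.56 ± 0.27, 0.18 ± 0.21 and 0.42 ± 0.25. Parp14 and Dtx3l were above the empty vector pair in both of those libraries, and the groups of Parp9 overlapped.

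Gbp2 rose in both comparisons. It encodes a guanylate-binding protein, a GTPase that interferon-gamma induces strongly and that attacks membranes around intracellular pathogens. It stood at 3.06, 3.43 and 2.88 TPM in the batch 2 empty vector and at 4.49, 4.42 and 4.88 TPM in the Drosha knockout (0.44 ± 0.10, adjusted p = 0.00848). In batch 1 it stood at 9.79 and 6.10 TPM and 17.0 and 19.6 TPM (1.14 ± 0.24, adjusted p = 0.0225), the largest rise of any member there. Neither pair of groups overlapped, and the batch 1 call was lost without empty vector replicate 2 (0.83, adjusted p = 0.0626). Its relative Gbp3 was too low to test in batch 2, at 0.323, 0.439 and 0.894 TPM and 1.23, 1.33 and 0.935 TPM, and in batch 1 stood at 11.1 and 8.22 TPM and 7.14 and 6.50 TPM (-0.44 ± 0.21, adjusted p = 0.164).

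Of the antigen presentation genes, Tap1 passed in both comparisons in opposite directions and B2m in neither. Tap1 encodes a subunit of the transporter that carries peptides to MHC class I. It stood at 14.3, 15.8 and 14.3 TPM and 19.8, 20.7 and 21.5 TPM in batch 2 (0.45 ± 0.06, adjusted p = 0.000949). In batch 1 it stood at 19.3 and 13.3 TPM and 8.94 and 8.85 TPM (-0.78 ± 0.21, adjusted p = 0.0419), and without empty vector replicate 1 it was -0.53 (adjusted p = 0.0766). The groups were apart in both tables. B2m, the light chain of MHC class I, had the highest level of all members in every group, at 2236 ± 86.9 TPM in the batch 2 empty vector and 2237 ± 121 TPM in the Drosha knockout (-0.0001 ± 0.05, adjusted p = 0.999). Under quantile normalization this change was 0.17 (adjusted p = 0.0308). In batch 1 it stood at 3749 and 4289 TPM and 4123 and 4394 TPM, with overlapping groups (0.09 ± 0.11, adjusted p = 0.599), and under quantile normalization the change was 0.32 and passed (adjusted p = 0.0244).

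Cxcl10, a chemokine that draws T cells, had the largest change of any member in batch 1. It had 69.8 and 39.7 TPM with the empty vector and 12.2 and 8.58 TPM in the libraries labelled Dicer1 knockout (-2.26 ± 0.30, adjusted p = 0.0084). The groups were far apart, and without empty vector replicate 1 the change was -1.86 (adjusted p = 0.0507). In batch 2 it was too low to test, at 0.404, 0.0838 and 0.320 TPM in the empty vector and 1.02, 0.763 and 0.626 TPM in the Drosha knockout, where every knockout library was above every empty vector library.

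The levels of the members differed widely. TPM allows levels of genes to be compared within a library, and in the batch 2 empty vector B2m (2236 TPM), Ifi27 (194.0) and Bst2 (30.1) had the highest means, followed by Eif2ak2 (22.5), Samd9l (21.6) and Irf1 (21.6). Samd9l overlapped both of its neighbours in that order, while all Eif2ak2 values were above all those of Irf1. The lowest means were those of Cxcl10 (0.269), Oasl2 (0.261), Mx2 (0.0800), Mx1 (0.0349) and Rsad2 (0.00618). B2m, Ifi27 and Bst2 also led in each of the other 3 groups. In batch 1 Isg15 came next, at a mean of 126.7 TPM in the empty vector and 51.6 TPM in the libraries labelled Dicer1 knockout.

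Members with and without an ISRE match were both among those that rose. In the Drosha knockout 8 of the 11 tested members with a match rose, with a median change of 0.55, and 8 of the 14 without a match, with a median of 0.33. With the Dicer1 knockout label, 6 of the 14 members with a match fell and 1 rose, with a median of -0.84, against 4 and 2 of the 14 without one, with a median of -0.36. These counts were not tested.

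The change in the Drosha knockout was above the change in the libraries labelled Dicer1 knockout for most members. A single limma fit over the 10 libraries and the 11146 genes tested in both tables gave the test of this difference. Of the 31 members tested, it passed for 20, being higher for 18, lower for 2 (Adar and Gbp2), and did not pass for 11. Usp18 and Oasl2, both among the 18, reached the TPM minimum of the Drosha table only in the knockout libraries. Their tests thus depend on the group in which they were high. Over all genes 35.5% passed, 17.4% higher and 18.1% lower. The median difference was 0.92 over the members and -0.02 over all genes. The largest were those of Usp18 (2.42 ± 0.37, adjusted p = 0.000824), Ifit1 (2.32 ± 0.48, adjusted p = 0.00462), Ifit3 (2.23 ± 0.40, adjusted p = 0.00218) and Ifit3b (2.01 ± 0.37, adjusted p = 0.00261). Irf7 (1.84 ± 0.22), Dhx58 (1.82 ± 0.35) and Bst2 (1.53 ± 0.19) also passed, and of these none passed in the Drosha knockout itself. Of the 18, 10 passed in all 19 alternatives run, and 6 (Irf7, Usp18, Ifit1, Oasl2, Oas1a and Ifi44) in all but a minimum TPM of 5, where they were not tested, while Ifih1 and Rtp4 lost the call in some. That of Adar was -0.47 ± 0.16, adjusted p = 0.0488 and that of Gbp2 was -0.69 ± 0.23, adjusted p = 0.0426, and neither of these calls held under all alternatives run, among them a pseudocount of 0.5. With each batch 2 library left out in turn, 17 to 20 members were higher and 0 or 1 lower. Of all genes, 14.7 to 15.2% were then higher and 14.0 to 16.8% lower. With each batch 1 library left out, the median difference of the members was 0.69 to 1.22, the lowest without empty vector replicate 1. Knockout and batch coincide, so a difference between the knockouts and a difference between the batches cannot be told apart.

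**Figure D3:**
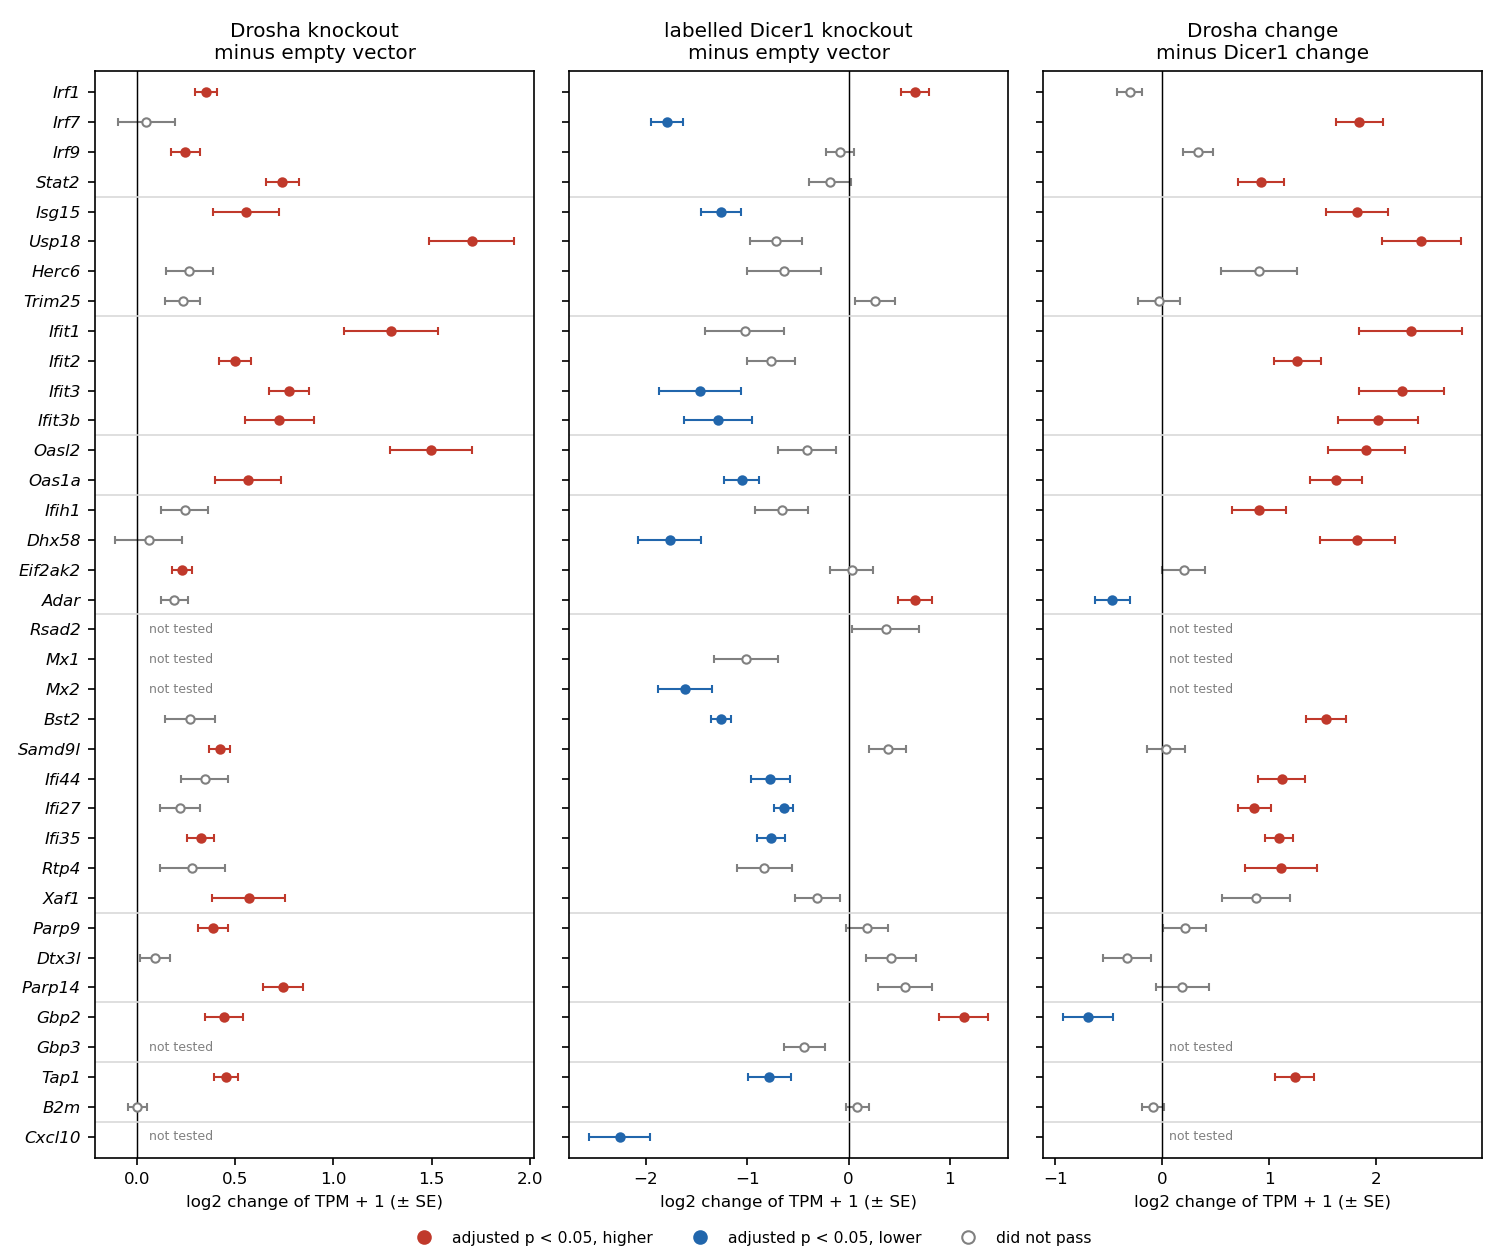
Each row is 1 member, with its log2 change on the TPM + 1 scale (point) and SE (bar) for the Drosha knockout, for the libraries labelled Dicer1 knockout and for the first minus the second. Filled red and blue points passed an adjusted p of 0.05, open points did not, and the x axes differ. In the first panel 19 points are red and 12 open. The second holds 13 blue, 3 red and 20 open points, and the last 18 red, 2 blue and 11 open.

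The empty vector libraries of the batches differed in these genes. All empty vector libraries had the same drug, time and genotype label, but the kits and sequencers that served each batch are not stated. Levels set across the batches are therefore descriptions with no test. Both batch 1 empty vector libraries were above all 3 batch 2 empty vector libraries for 31 of the 36 members, and below them for 1, Irf1. Among the 31 members tested in both tables this held for 26, where 42.3% of all genes tested in both tables did so. The median log2 difference, batch 1 minus batch 2, was 1.09 over these members and 0.05 over all genes. Cxcl10 had a mean of 54.8 TPM in the batch 1 empty vector and 0.269 TPM in that of batch 2, Ifit1 62.1 and 1.28 TPM, Usp18 39.7 and 0.825 TPM, and Isg15 126.7 and 12.4 TPM. Ifit2, at 11.2 and 10.9 TPM, and Tap1, at 16.3 and 14.8 TPM, overlapped between the batches. Both batch 1 empty vector libraries also lay above all 3 Drosha knockout libraries for 26 of the 36 members, and for 21 of the 31 tested, against 34.4% of all genes tested in both tables. The batches thus differed in the level from which each knockout was compared: members such as Usp18, Oasl2 and Ifit1, which rose in the Drosha knockout, were lower there than in the empty vector cells of batch 1. The stromal and adipocyte markers, given above, also summed to different levels in the batches, and their part in this was not tested.

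Side by side, 6 members rose in the Drosha knockout and fell in the libraries labelled Dicer1 knockout: Isg15, Ifit3, Ifit3b, Oas1a, Ifi35 and Tap1. Each of these lost at least 1 of its calls in an alternative. The Drosha calls of Isg15, Oas1a and Ifi35 were lost under both scalings. The batch 1 calls of Isg15, Ifit3, Ifit3b and Tap1 were lost with no filter on low values. Irf1 and Gbp2 rose in both. Of the other members tested in both tables, 11 rose in the Drosha knockout only by the test, 5 fell only in batch 1, Adar rose only in batch 1 and 6 passed in neither. These pairs of calls are given without their share over all genes. Of all genes tested, 35.3% were called higher in the Drosha knockout and 9.6% lower in the libraries labelled Dicer1 knockout.

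The interferon ligands themselves were near or at 0. Of 21 type I, II and III interferon genes, 16 were listed at 0 in every library of the Drosha table and 15 in every library of the Dicer1 table, and 0 were tested. The highest were Ifne, at 0, 0.191 and 0 TPM in the batch 2 empty vector and 0.756, 0.380 and 1.20 TPM in the Drosha knockout, and Ifnz, at 0.827 and 0.748 TPM in the batch 1 empty vector and 0.692 and 0.813 TPM in the libraries labelled Dicer1 knockout. Secreted protein was not measured.

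Genes of the interferon receptors and of JAK-STAT signalling were called higher, and 0 lower, in both comparisons. In the Drosha knockout 10 of 14 tested rose (71.4%, against 35.3% of all genes), with a median of 0.19 beside 0.13 over all genes. At an unadjusted p under 0.05, 12 were higher and 0 lower. The largest rises were those of Il10rb, a shared receptor chain (0.68 ± 0.04, adjusted p = 2.99e-05), and the kinase gene Tyk2 (0.53 ± 0.07, adjusted p = 0.00105). Jak1 (0.42 ± 0.04) and the receptor gene Ifnar1 (0.41 ± 0.04) also rose, Ifnar1 from 28.6 ± 0.305 to 38.2 ± 1.50 TPM. In the libraries labelled Dicer1 knockout 5 of 15 rose (33.3%, against 21.5% of all genes), with a median of 0.38 beside 0.15 over all genes. At an unadjusted p under 0.05, 9 were higher and 1 lower. Jak2 went from 23.5 and 23.6 TPM to 47.6 and 46.6 TPM (0.97 ± 0.10, adjusted p = 0.00604). Stat3 (0.59 ± 0.12), Il10rb (0.55 ± 0.14) and the feedback inhibitor gene Socs3 (0.42 ± 0.09) rose as well.

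Of 25 tested genes of nucleic acid sensing and its signalling, 10 rose (40.0%, against 35.3% of all genes) and 1 fell in the Drosha knockout (median 0.24). Those that rose included Tlr3, the endosomal receptor of double-stranded RNA (0.59 ± 0.11, adjusted p = 0.00446), Tarbp2, a partner of Dicer1 (0.58 ± 0.09, adjusted p = 0.00184), Sting1, the adaptor of DNA sensing (0.50 ± 0.09, adjusted p = 0.00451) and Rigi, the cytosolic RNA sensor (0.47 ± 0.05, adjusted p = 0.000353). With the Dicer1 knockout label, 3 of 27 rose (11.1%, against 21.5% of all genes) and 2 fell (7.4%, against 9.6%; median -0.15). The transcription factor gene Irf5 fell from 75.0 and 47.8 TPM to 12.7 and 15.7 TPM (-2.01 ± 0.24, adjusted p = 0.00669), and Samhd1, a nucleotide hydrolase gene, from 51.2 and 36.8 TPM to 25.7 and 25.4 TPM (-0.74 ± 0.18, adjusted p = 0.0296). Traf3, an adaptor gene, rose (1.04 ± 0.12, adjusted p = 0.00624), as did Tarbp2 (0.71 ± 0.12, adjusted p = 0.0141).

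Of 20 tested MHC class I presentation genes, 13 rose (65.0%, against 35.3% of all genes) and 0 fell in the Drosha knockout (14 higher and 0 lower at an unadjusted p under 0.05, median 0.27), among them the peptide trimmer gene Erap1 (0.65 ± 0.09, adjusted p = 0.00104), H2-T23 (0.39 ± 0.04), the immunoproteasome gene Psmb10 (0.37 ± 0.06) and Tap2 (0.36 ± 0.05). In the libraries labelled Dicer1 knockout 8 of 20 fell (40.0%, against 9.6% of all genes), 3 rose and 9 did not pass (median -0.33). The immunoproteasome genes Psmb9, from 10.3 and 8.53 TPM to 3.03 and 1.75 TPM (-1.64 ± 0.26, adjusted p = 0.0118), and Psmb8, from 7.33 and 7.16 TPM to 2.00 and 1.81 TPM (-1.51 ± 0.21, adjusted p = 0.0087), fell, as did H2-Q4 (-0.99 ± 0.16) and Tap2 (-0.89 ± 0.14). Tap2 passed in both comparisons, in opposite directions. The H2 genes are a family of close copies, so their reads may be split among them.

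Of a further list of 65 interferon-stimulated genes, 39 were tested in the Drosha knockout. There 18 rose (46.2%, against 35.3% of all genes) and 2 fell (5.1%, against 7.42%). Their median was 0.30, beside 0.13 over all genes. Slfn2, a Schlafen gene, went from 0.463, 0.361 and 0.507 TPM to 3.18, 2.64 and 2.68 TPM (1.41 ± 0.14, adjusted p = 0.000297) and was tested only because the knockout libraries passed the TPM minimum, Mov10, an RNA helicase gene, changed by 0.69 ± 0.06 and Irgm1, an immunity-related GTPase gene, by 0.67 ± 0.05. With the Dicer1 knockout label, 53 were tested, of which 13 fell (24.5%, against 9.6% of all genes) and 1 rose (1.9%, against 21.5%). Their median there was -0.39, beside 0.15 over all genes. Ccl5, a chemokine gene, rose in the Drosha knockout from 4.16, 6.60 and 4.46 TPM to 12.0, 9.51 and 10.3 TPM (0.95 ± 0.16, adjusted p = 0.00264) and fell in batch 1 from 226 and 333 TPM to 45.5 and 45.8 TPM (-2.56 ± 0.19, adjusted p = 0.00337). Ifi27l2a, a relative of Ifi27, fell from 335 and 323 TPM to 64.9 and 50.6 TPM (-2.50 ± 0.13, adjusted p = 0.00174), and Ifitm3, which keeps viruses in endosomes, from 650.3 and 541 TPM to 161 and 178 TPM (-1.80 ± 0.12, adjusted p = 0.0024). Oasl1 fell by less (-1.62 ± 0.26) and from a low level.

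**Figure D4:**
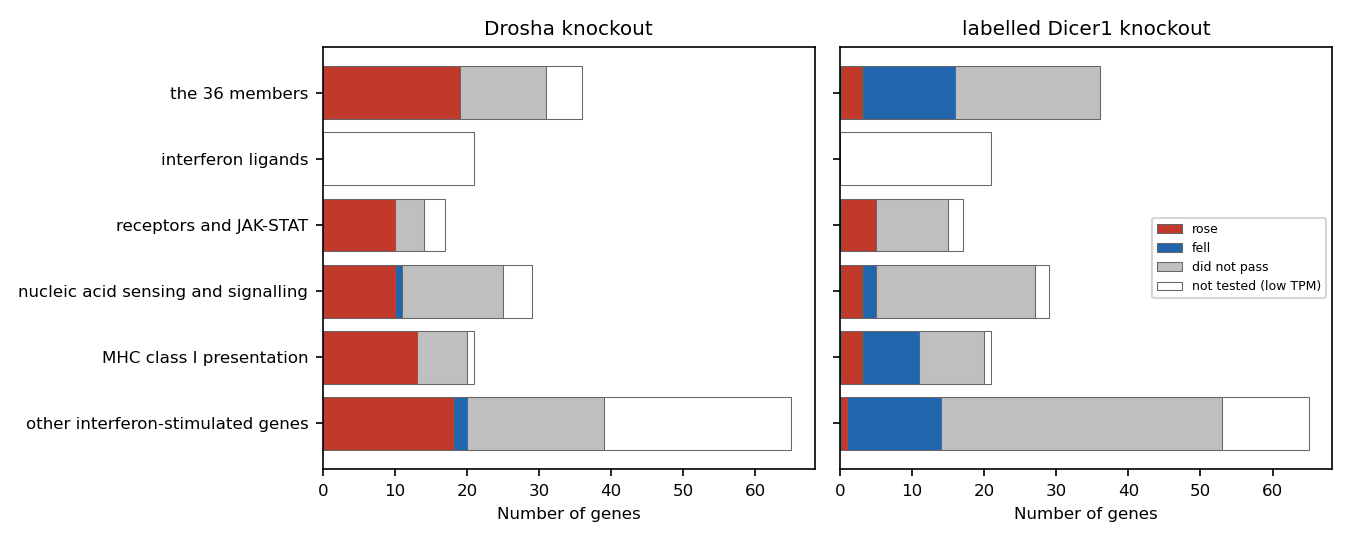
Bars count the genes of each list (rows) that rose, fell, did not pass or were too low to test, in the Drosha knockout on the left and in the libraries labelled Dicer1 knockout on the right. Blue segments are longest on the right in the 36 members, the MHC class I genes and the further interferon-stimulated genes.

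Markers of other cells and of the line itself were read beside these results. Of 14 macrophage markers, C1qa, C1qb, C1qc and Tyrobp were listed at 0 in all libraries, and the list summed to 28.1 to 30.4 TPM in the batch 2 empty vector, 29.4 to 34.6 in the Drosha knockout, 29.9 to 38.5 in the batch 1 empty vector and 34.7 to 37.9 in the libraries labelled Dicer1 knockout. Single macrophage markers differed between the batches behind these sums: Lyz2 had a mean of 19.5 TPM in the batch 2 empty vector and 0.273 TPM in that of batch 1, and Cd68 had 1.63 and 15.7 TPM. Cd14 rose with the members in the Drosha knockout, from 7.26 ± 0.960 to 9.90 ± 0.839 TPM (0.40 ± 0.11, adjusted p = 0.0186), and was the only called gene of the 3 macrophage markers tested there. Of 6 endothelial markers 0 were tested, with sums under 1 TPM in batch 2 and of 1.64 to 4.33 TPM in batch 1. Of 11 lymphocyte and plasmacytoid dendritic cell markers, Tcf4 was the only gene tested, and Klrb1c was among those listed at 0 in all libraries. Stromal and adipocyte markers mostly fell in both comparisons. In the libraries labelled Dicer1 knockout 10 of 14 fell (71.4%, against 9.6% of all genes) and 1 rose, while members mostly fell. Adipoq and Plin1, both among those 10, were tested there only through their empty vector libraries. In the Drosha knockout 8 of these 14 fell (57.1%, against 7.42% of all genes) and 2 rose, while members rose. The part of these markers in the changes of the interferon-stimulated genes was not tested.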

How the data were processed

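RNA was sequenced from 10 OP9 libraries in 2 batches, grouped by the genotype and batch in the labels. The deposited values are TPM per gene, in 1 table per batch, which the authors estimated with kallisto (version 0.48.0 by the submitters' processing notes, per the labels). The transcript index, genome build, trimming and the summing of transcripts to genes are not stated in the sources used here. The labels name several kits and sequencers without saying which served which library. TPM keeps no depth, so the precision of a value was taken from the spread between libraries only.

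Of 55357 gene rows per table, 22369 had no symbol in the Drosha table. There 20024 genes were named from the reference by gene ID, 52081 IDs being found in it, and the rest kept their ID. The Dicer1 table lost the 22339 genes that had no symbol there, with 4.25 to 6.22% of the TPM, and rows sharing a name were summed. Another 3 columns of that table were not used. Each comparison was fitted over all genes past the TPM minimum with limma 3.58.1 (R 4.3.3) on log2(TPM + 1) with a mean trend, two-sided, with Benjamini-Hochberg adjustment, called at 0.05. Fold changes are on that scale and understate changes of low genes. Knockout and empty vector libraries were compared within a table only; the fit of the difference between the comparisons assumes 1 spread for all 4 groups. The steps were tested on simulated data. Tables and figures were made with Python 3.11.15, pandas 2.3.3 and matplotlib 3.10.9.

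The members and the lists were chosen with earlier results of these data known, so their counts are descriptions and no test was run over a list. All 36 members were accounted for. From each pathway list up to 4 called genes with the largest change were named per comparison; an item that the rule also named is not reported here. Shared 31-base words of GENCODE M21 transcripts stood in for a comparison of protein sequences, which was not made. Promoters came from RefSeq (GRCm38.p6). The alternatives tried were other pseudocounts, minimums, scalings and fits, and each library left out in turn.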

Additional observations from a re-analysis of the deposited data

How the results depend on the processing

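The direction of the members' median held in each comparison under all alternatives run, and the limits lie mainly in the 4 libraries of batch 1. Over single members and alternatives, 395 of the Drosha results kept direction and side of the threshold, 37 lost and 9 gained a call, and 14 changed sign; in batch 1 the numbers were 376, 62, 14 and 13, and for the difference 519, 34, 15 and 11. No call of the 13 that fell in batch 1 held in every alternative, because leaving out either knockout library left 0 calls among all genes (2668 and 2849 at an unadjusted p under 0.05). Those of Irf7, Oas1a, Bst2 and Ifi35 held in the others. TPM holds no depth, so how far depth limits the low members is unknown. Why other calls moved was not tested.

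The Drosha median was 0.22 under median-ratio scaling and 0.19 under quantile normalization, which gave 13 members higher and 0 lower (16 and 0 at an unadjusted p under 0.05) and, over all genes, 2143 higher and 2204 lower. With no filter on low values batch 1 gave 1847 genes called, 6 members lower and 0 higher (3 at an unadjusted p under 0.05), with 20435 genes tested in place of 12239. For the difference, a pseudocount of 0.1 gave a median of 1.10, and 0 members were lower under pseudocounts of 0.1 and 0.5, without a filter and with the replicate block (3 each at an unadjusted p under 0.05). Of all genes, 11.4 to 17.8% were lower in those settings. A minimum TPM of 5, which left 21 members, gave 11 higher and 1 lower, beside 17.4% and 20.4% of all genes. The fit without the mean trend gave 1 member lower, beside 17.7% of all genes.

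Same-numbered libraries deviated from their group means with correlations of -0.021, 0.020 and -0.0070 in batch 2 and -0.092 in batch 1. With 2 libraries per group, the batch 1 values can only mirror each other (-0.092 and 0.092). Whether same-numbered libraries share a culture or preparation therefore cannot be read from these values, and the main fits used no pairing. With the replicate number as a block, 19 members rose and 0 fell in the Drosha knockout, 3 rose and 15 fell in batch 1, and 18 were higher for the difference. Over all genes the block gave 4295 higher and 893 lower, 2066 and 979, and 1741 and 1692.

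Leaving out each library in turn gave, in batch 1, 0 to 2194 genes called, 0 to 4 members higher, 0 to 15 lower and a median of -0.92 to -0.35. For the difference it gave 0 to 4 members lower and a median of 0.69 to 1.22. In the Drosha knockout it gave 4506 to 4904 genes called and a median of 0.34 to 0.41.

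Signs changed only in results that had not passed, the largest of them -0.41 for Oasl2 in batch 1. Under median-ratio scaling the Drosha change was -0.062 for Irf7, -0.064 for Dhx58 and -0.034 for Dtx3l, and under quantile normalization -0.097, -0.094 and -0.064, with 0.17 for B2m. In batch 1 the change was -0.12 for Eif2ak2 and -0.070 for B2m under median-ratio scaling, and -0.16 for Eif2ak2 under quantile normalization. With each library left out, Drosha changes ranged from -0.12 to 0.19 for Dhx58, -0.050 to 0.18 for Irf7 and -0.032 to 0.044 for B2m. Batch 1 changes ranged from -0.19 to 0.016 for Irf9, -0.27 to 0.33 for Eif2ak2, -0.48 to 0.12 for Stat2, -0.85 to 0.025 for Oasl2, -0.62 to 0.0086 for Xaf1, -0.011 to 0.18 for B2m, -0.021 to 0.76 for Rsad2 and -0.083 to 0.44 for Parp9. Differences ranged from -0.23 to 0.17 for Trim25, -0.22 to 0.29 for Samd9l, -0.11 to 0.50 for Eif2ak2, -0.055 to 0.47 for Parp9, -0.14 to 0.51 for Parp14 and -0.18 to 0.011 for B2m.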
